A study of Homo sapiens with 9 samples.

Results

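Histone mRNA 3 prime end processing was described through 9 genes: SLBP, LSM10, LSM11, NPAT, CASP8AP2, ZNF473, CPSF2, CPSF3 and SYMPK. A probe set, the group of short probes that gives a single signal, was taken for a gene where the platform annotation named that gene alone. This gave 21 probe sets, of which 18 were bright enough to be tested, and the brightest of each gene stood for the gene. The other 3, a dim probe set each of NPAT, CASP8AP2 and SYMPK, were not tested. All 9 genes were tested through their brightest probe set, among 14018 tested genes of 19775 that a probe set named alone.

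The cells were HEK293, an established human embryonic kidney line that does not normally make surfactant protein C (SP-C), the hydrophobic lung protein of alveolar type II cells. All 9 samples were made to express SP-C by transient transfection. The WT group received the wild-type protein, Ex4 a mutant whose exon 4 is deleted, and LQ a mutant with the L188Q substitution, each with 3 Affymetrix arrays of total RNA. WT was the control, and neither untransfected cells nor an empty vector were analysed here, so transfection itself is common to all groups. Transient transfection reaches only part of a culture, and the share of cells expressing each form was not measured here. Whether the replicates of a group were separate cultures is not stated, and each p-value covers the spread between arrays alone, which may be technical. In such bulk RNA, fewer cells of a kind and less RNA per cell cannot be told apart.

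Replication-dependent histone mRNAs are the metazoan mRNAs that end in a conserved stem-loop rather than a poly(A) tail. SLBP binds the stem-loop, the U7 small nuclear ribonucleoprotein pairs with an element downstream of it, and a cleavage complex cuts between them. SLBP protein accumulates in S phase and is degraded at its end, so that histone output follows DNA replication. NPAT and CASP8AP2 work where histone genes are transcribed, in nuclear histone locus bodies.

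The promoters of SLBP, CASP8AP2 and NPAT are shown because the values below turn most on these genes, SLBP as the member that passed the test and the others as those most affected by a control array. Each is the 250 bases before the annotated start, 5′ to 3′ on the gene's own strand, from RefSeq on GRCh38.p14. SLBP lies at chr4:1712320-1712569 on the minus strand, CASP8AP2 at chr6:89829630-89829879 on the plus strand and NPAT at chr11:108222639-108222888 on the minus strand. Capitals mark matches on either strand to E2F-type letters (TTTCCCGC, TTTCGCGC, TTTGCCGC or TTTGGCGC), the CCAAT box (CCAAT) and the GC box (GGGCGG). No marked motifs overlap in these windows.
SLBP: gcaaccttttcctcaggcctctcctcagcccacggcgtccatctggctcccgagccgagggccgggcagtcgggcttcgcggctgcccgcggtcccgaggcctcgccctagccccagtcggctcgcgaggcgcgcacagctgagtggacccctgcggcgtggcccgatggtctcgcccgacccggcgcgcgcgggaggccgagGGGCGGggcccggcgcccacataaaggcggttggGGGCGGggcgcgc
CASP8AP2: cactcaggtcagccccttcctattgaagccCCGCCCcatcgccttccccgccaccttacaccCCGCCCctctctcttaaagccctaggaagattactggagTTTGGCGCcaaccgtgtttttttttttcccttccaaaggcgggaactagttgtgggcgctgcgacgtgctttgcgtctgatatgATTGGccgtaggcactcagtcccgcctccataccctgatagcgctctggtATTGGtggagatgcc
NPAT: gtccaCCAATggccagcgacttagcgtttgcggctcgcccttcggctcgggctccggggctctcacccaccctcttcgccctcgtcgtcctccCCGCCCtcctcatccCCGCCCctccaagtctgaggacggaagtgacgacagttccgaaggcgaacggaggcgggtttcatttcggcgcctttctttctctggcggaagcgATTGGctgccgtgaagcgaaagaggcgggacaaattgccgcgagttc
SLBP held 2 GC boxes, at 47 to 42 and 13 to 8 bases before the start. CASP8AP2 held an E2F-type match at 149 to 142 bases before the start, with 2 GC boxes upstream of it and 2 reverse CCAAT boxes downstream. NPAT held 2 CCAAT and 2 GC boxes. Of the 9 genes, 8 had a promoter in the table, ZNF473 being the exception. E2F-type letters were found in 2 of these 8 (CASP8AP2 and CPSF3) and in 2.79% of 27305 promoters of that length. CCAAT was found in 4 of 8 (33.0% of all) and the GC box in 5 of 8 (42.3% of all). A match is a string of letters and not a measured binding site.

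The signals are deposited MAS5 intensities on a linear scale, and differences are on the log2(value + 16) scale with their standard error (SE). Array medians were 506.4 to 524.4 in WT, 316.1 to 434.3 in Ex4 and 303.9 to 371.8 in LQ. As deposited, tested probe sets had a median change against WT of -0.12 (Ex4) and -0.15 (LQ). Centring each array on its median moved these to 0.37 and 0.44, and quantile normalization to 0.02 and 0.04, so a change is read against that shift. Ex4 replicate 1 stood apart, correlating on average at 0.911 with the WT arrays and only 0.906 with the other Ex4 arrays. Its correlation with the LQ arrays was the highest, at 0.927. WT replicate 1 also stood apart, at 0.892 with the other WT arrays against 0.906 and 0.907 with the Ex4 and LQ arrays. Where leaving out either array changed a call of a named gene or the number of calls in a list, the value is given beside it. All 7 HEK293 markers were above the array median on all 9 arrays. Their signals summed to 105750 to 129760 on the WT arrays, 92043 to 100790 on Ex4 and 93068 to 106160 on LQ. The LQ value was below 0 for 6 of the 7, INA at 0.13 being the exception, and PAX2 was called lower in LQ, at -2.04 (adjusted p = 0.025). In Ex4 PAX2 was at -1.82, and none of the 7 was called with all arrays. Without Ex4 replicate 1, and likewise without WT replicate 1, 1 of the 7 was called lower in Ex4. Of all genes, 8.1% and 5.2% were called lower in Ex4 in those fits. Of the other cell type lists, 1 to 2 of 8 blood, 1 to 2 of 6 fibroblast and 3 to 5 of 7 alveolar type II markers were above it on an array, and no marker was at 0. Blood marker signals summed to 3338.1 to 3682.6 on the WT arrays, 1828.9 to 1928.4 on Ex4 and 1584.6 to 1958.6 on LQ. The fibroblast sums were 6657.1 to 8076.7, 4706.8 to 5882.3 and 3215.8 to 4446.5, and the alveolar type II sums 4846 to 6529.9, 3721.2 to 4554.6 and 4250.5 to 5063.8, in the same order of groups. COL1A1, a fibroblast marker, was called lower in LQ, at -0.96 (adjusted p = 0.028). Of 3 tested blood markers, 1 was called lower in Ex4 without Ex4 replicate 1, and none in either mutant with all arrays. The part of these markers in the results was not tested.

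SLBP was the only 1 of the 9 genes past an adjusted p of 0.05 in LQ cells, where it rose, and no member passed in Ex4 cells. Against WT, 7.32% of all 14018 genes were called in LQ (3.69% higher and 3.63% lower), so 1 of 9 is near that background. In Ex4, 0.0% of genes were called by limma, and 4 of the 9 members (SLBP, LSM10, CASP8AP2 and SYMPK) had an unadjusted p under 0.05, against 27.2% of all genes. In LQ 3 members (SLBP, CASP8AP2 and SYMPK) had one, against 30.6% of genes. The fitted change was positive for 5 of 9 members in Ex4 and 6 of 9 in LQ, with medians of 0.10 and 0.09. Over all genes 43.6% were positive in each comparison, with medians of -0.08 and -0.09. With quantile normalization 4 of 9 members were positive in each mutant (medians -0.05 and -0.08), against 49.1% and 49.7% of all genes. Without WT replicate 1 it was 5 of 9 in each (medians 0.01 and 0.0), against 41.8% and 42.4%. Without Ex4 replicate 1 it was 6 of 9 in each (medians 0.16 and 0.09), against 45.9% and 43.6%. Median centring made it 8 of 9 in each (medians 0.59 and 0.67), against 75.5% and 77.3%. With median centring the calls over all genes in LQ became 30.2% (28.9% higher and 1.21% lower), and in Ex4 19.3% (18.5% and 0.842%).

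**Figure D1:**
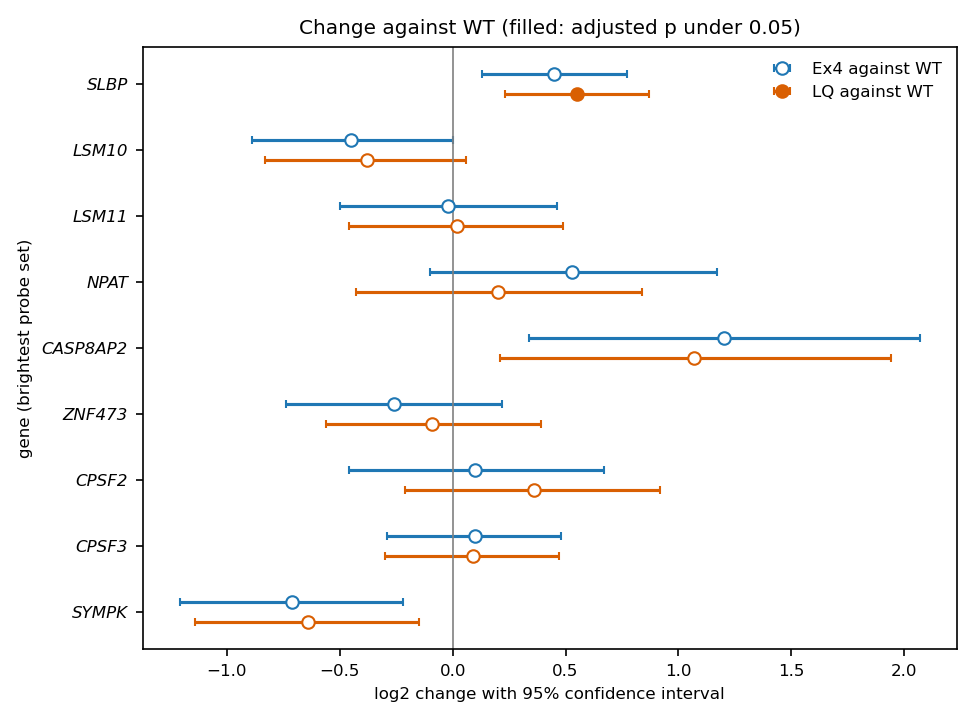
Log2 change of each gene's brightest probe set against WT (horizontal axis) with its 95% confidence interval, for Ex4 (blue) and LQ (orange). SLBP in LQ, at 0.55, is the only filled point, and the CASP8AP2 intervals are the widest, at 0.34 to 2.07 in Ex4 and 0.21 to 1.94 in LQ.

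SLBP, the stem-loop binding protein, had signals of 7308.7, 6447.5 and 7117.4 on the WT arrays, 8374.2, 10598.7 and 9663.7 on the Ex4 arrays and 10055.2, 10423.3 and 10061.6 on the LQ arrays. All 6 mutant arrays lay above all 3 WT arrays, as 6.79% of tested genes did, and Ex4 replicate 1 was the lowest of the 6. WT averaged 6958 ± 452 (SD, n = 3), Ex4 9546 ± 1117 and LQ 10180 ± 211. The rise in LQ was 0.55 ± 0.15 (SE; adjusted p = 0.046), and the Ex4 value of 0.45 ± 0.15 did not pass (adjusted p = 0.11). Without Ex4 replicate 1 SLBP passed in both mutants, at 0.54 in Ex4 (adjusted p = 0.039) and 0.55 in LQ (adjusted p = 0.026). In that fit 13.8% of genes were called in Ex4 (5.69% higher and 8.1% lower) and 14% in LQ (6.42% higher and 7.62% lower), or 13.5% and 13.4% of probe sets.

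The SLBP call in LQ sat close to the threshold. Over the 9 fits that each left out 1 array, the LQ value ran from 0.50 to 0.59, with adjusted p from 0.026 to 0.15. It passed in the 3 fits that dropped WT replicate 1 or either Ex4 replicate 1 or 2. In Ex4 the value ran from 0.37 to 0.54 and passed in 1 of the 9. The LQ call was also lost with no filter on dim probe sets (adjusted p = 0.061) and with no variance trend (adjusted p = 0.097), at the same change of 0.55. The size depended on the scaling. With quantile normalization the values were 0.31 in Ex4 and 0.38 in LQ (adjusted p = 0.22 and 0.12), and with median centring 0.94 and 1.13 (adjusted p = 0.019 and 0.0047). The direction was positive under each of these scalings.

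**Figure D2:**
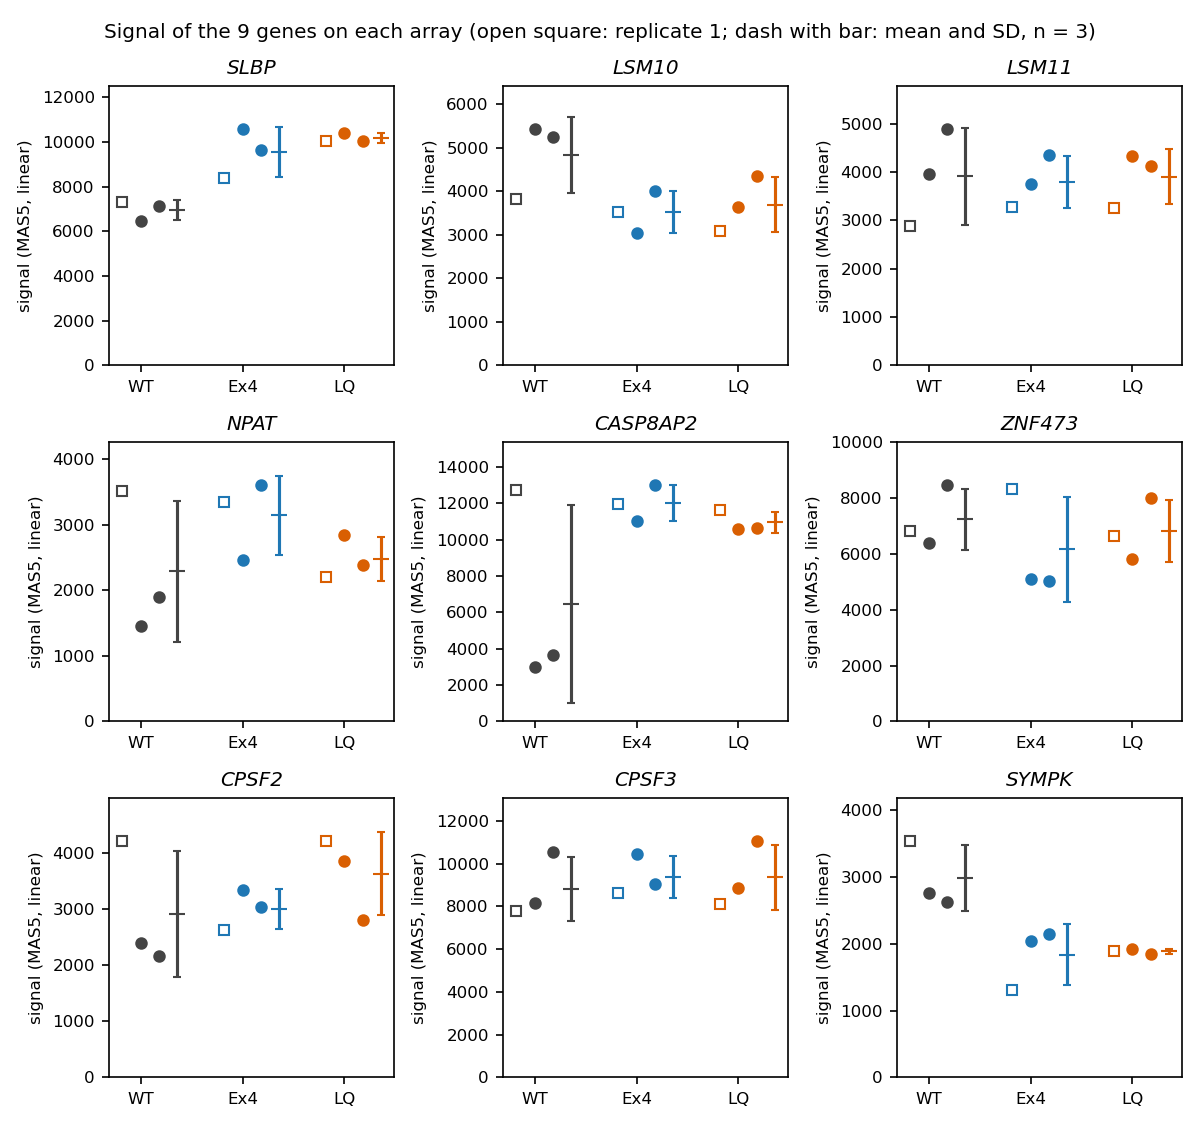
MAS5 signal (vertical axes, linear, from 0) of the 9 genes on each array of WT, Ex4 and LQ, with replicate 1 as an open square and the mean and SD of 3 arrays as a dash with a bar. The WT points of SLBP and SYMPK lie apart from all 6 mutant points, while for CASP8AP2 WT replicate 1 (12755.1) lies among the mutant arrays and the other WT arrays (3009.2 and 3641.7) far below them.

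LSM10 and LSM11 are the U7-specific proteins that replace a pair of ordinary Sm proteins in the ring around U7 RNA. LSM10 gave 3828.6, 5434.1 and 5231 in WT, 3515.5, 3030.2 and 4012.2 in Ex4 and 3088.9, 3630 and 4347.7 in LQ. Its lowest WT array, replicate 1, fell within the range of both mutants. Its changes were -0.45 ± 0.20 in Ex4 (adjusted p = 0.20) and -0.38 ± 0.20 in LQ (adjusted p = 0.23), and median centring turned them to 0.04 and 0.20. Without WT replicate 1 the WT arrays lay above all mutant arrays, and neither comparison passed.

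LSM11, which also contacts the cleavage machinery, gave 2893, 3953.7 and 4898.4 in WT, 3286.4, 3758.6 and 4356.2 in Ex4 and 3258.1, 4327.7 and 4120.9 in LQ. The groups overlapped throughout, and the changes of -0.02 ± 0.22 and 0.02 ± 0.22 carried intervals of -0.50 to 0.46 and -0.46 to 0.49. Its other 3 probe sets gave -0.55, -0.33 and -0.41 in Ex4 and -0.24, 0.09 and 0.06 in LQ. None of the 4 passed in either mutant. The Ex4 values of all 4 were below 0 as scaled, and median centring turned 3 of them, to 0.47, 0.16 and 0.08, and left -0.06 for the other.

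ZNF473, also called ZFP100, is the zinc finger protein that associates with U7 through LSM11 and with the SLBP-stem-loop complex. It gave 6836.4, 6395.8 and 8487.3 in WT, 8339.8, 5120 and 5045.1 in Ex4 and 6658.6, 5818.8 and 8022.2 in LQ. Ex4 replicate 1 was high within its group and replicates 2 and 3 were below every WT array. The changes were -0.26 ± 0.22 in Ex4 (adjusted p = 0.48) and -0.09 ± 0.22 in LQ (adjusted p = 0.82), and without Ex4 replicate 1 the Ex4 value was -0.50 (adjusted p = 0.10). A dimmer probe set had the same split, with 2805.4 on Ex4 replicate 1 against 1282.3 and 1312.9 on replicates 2 and 3. Its changes were 0.05 in Ex4 and 0.40 in LQ, and neither passed. Median centring turned the brightest probe set to 0.23 and 0.50.

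CASP8AP2, or FLASH, is a histone locus body protein that binds LSM11 and helps to recruit the cleavage complex. Its 9 values were 12755.1, 3009.2 and 3641.7 in WT, 11978.9, 11013.9 and 13028.3 in Ex4 and 11633.6, 10604.8 and 10639.8 in LQ. The mutant arrays lay within 10604.8 to 13028.3, with Ex4 replicate 1 in the middle of its group, and WT replicate 1 was inside that range while the other WT arrays were far below it. Of all tested genes, 8.65% had that arrangement, with WT replicate 1 inside the mutant range and both other WT arrays below it. The changes were 1.20 ± 0.40 in Ex4 and 1.07 ± 0.40 in LQ (adjusted p = 0.11 for each), and neither passed.

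Leaving out WT replicate 1 set the CASP8AP2 values at 1.85 ± 0.15 in Ex4 (adjusted p = 0.00047) and 1.72 ± 0.15 in LQ (adjusted p = 0.00057). Genes called in that fit were 13.8% in Ex4 (8.59% higher and 5.2% lower) and 17.8% in LQ (9.97% higher and 7.8% lower). Leaving out Ex4 replicate 1 instead left 1.20 and 1.07, both at an adjusted p of 0.10. The choice of scaling gave positive values in each case, at 1.08 and 0.93 with quantile normalization (adjusted p = 0.17 and 0.20) and 1.69 and 1.66 with median centring (adjusted p = 0.017 and 0.0091). Its other probe set was below the array median on all 9 arrays and was not tested.

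NPAT, the cyclin E-CDK2 substrate that activates histone gene transcription, gave 3506.9, 1461.4 and 1904.2 in WT, 3350.6, 2468.9 and 3610.8 in Ex4 and 2196.5, 2847.7 and 2388.1 in LQ. As for CASP8AP2, WT replicate 1 was high and the other WT arrays were below all 6 mutant arrays. With all arrays the changes were 0.53 ± 0.29 in Ex4 (adjusted p = 0.27) and 0.20 ± 0.29 in LQ (adjusted p = 0.67). Without WT replicate 1 the Ex4 value was 0.89 ± 0.23 (adjusted p = 0.034) and the LQ value 0.56 (adjusted p = 0.11). The other tested probe set did not share this arrangement. It gave 1978.2, 1607.9 and 1407.1 in WT, 2182.6, 872.7 and 1587.7 in Ex4 and 1578.4, 1360.4 and 1158.4 in LQ, with changes of -0.19 and -0.28 that did not pass. As scaled, the direction for NPAT differed between its probe sets, although median centring turned the latter to 0.30 in both mutants, and the remaining one was too dim to test.

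**Figure D3:**
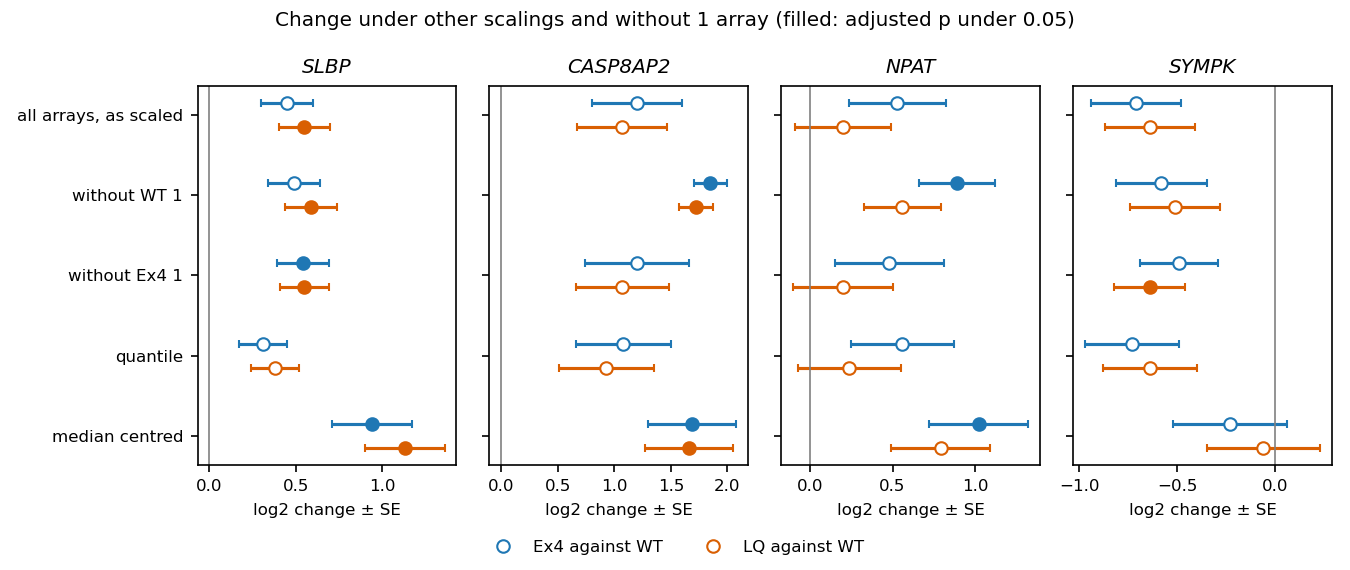
Log2 change ± SE (horizontal axes) of SLBP, CASP8AP2, NPAT and SYMPK in Ex4 (blue) and LQ (orange) with all arrays, without WT replicate 1, without Ex4 replicate 1, with quantile normalization and with median centring. CASP8AP2 moves from 1.20 and 1.07 to 1.85 and 1.72 without WT replicate 1, and SYMPK moves to -0.23 and -0.06 with median centring.

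CPSF3, CPSF2 and SYMPK form the core of the histone cleavage complex, which is shared with poly(A) cleavage. CPSF3, the endonuclease, gave 7775.4, 8140.1 and 10537.6 in WT, 8618.6, 10475.4 and 9057.2 in Ex4 and 8115.7, 8873.3 and 11082.5 in LQ. The groups overlapped, the changes were 0.10 ± 0.18 and 0.09 ± 0.18, and their intervals were -0.29 to 0.48 and -0.30 to 0.47. Quantile normalization turned both, to -0.05 and -0.09.

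CPSF2, the catalytically inactive partner of CPSF3, gave 4200.2, 2382.6 and 2153.8 in WT, 2628.9, 3339.9 and 3030.8 in Ex4 and 4211.4, 3853.2 and 2795.5 in LQ. WT replicate 1 was again high, and both other WT arrays were below all mutant arrays. The changes were 0.10 ± 0.26 and 0.36 ± 0.26 (adjusted p = 0.84 and 0.38), and without WT replicate 1 they were 0.40 and 0.65 (adjusted p = 0.23 and 0.061). A second probe set ran otherwise, at 4002.9, 3408.9 and 3879.7 in WT, 3794.8, 1937.6 and 1897.9 in Ex4 and 3161.6, 2535.9 and 3598.1 in LQ. Here Ex4 replicates 2 and 3 were the low arrays and Ex4 replicate 1 lay among WT, so that the change of -0.64 in Ex4 (adjusted p = 0.16) became -0.96 ± 0.20 without Ex4 replicate 1 (adjusted p = 0.014). The third gave -0.23 in Ex4 and 0.21 in LQ. Both of these carry the _x_ mark, with which Affymetrix labels probe sets that may bind other transcripts.

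SYMPK, or symplekin, is the scaffold of the complex, and its probe sets gave changes of opposite sign. The brightest gave 3546.4, 2769 and 2633.5 in WT, 1315.5, 2042.4 and 2155 in Ex4 and 1893.7, 1915.9 and 1850.9 in LQ. All 6 mutant arrays were below all WT arrays, as for 11.6% of tested genes, and Ex4 replicate 1 was the lowest. Its changes of -0.71 ± 0.23 in Ex4 (adjusted p = 0.10) and -0.64 ± 0.23 in LQ (adjusted p = 0.092) did not pass. Without Ex4 replicate 1 they were -0.49 (adjusted p = 0.12) and -0.64 (adjusted p = 0.040), and with median centring -0.23 and -0.06.

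The second SYMPK probe set gave 255.3, 648.4 and 365.5 in WT, 477.6, 1136.4 and 1155.5 in Ex4 and 1250.2, 1175.3 and 1216.3 in LQ. The LQ arrays were all above the WT arrays, and Ex4 replicate 1 lay among WT. It rose in LQ by 1.59 ± 0.40 (adjusted p = 0.042), where 6.81% of all tested probe sets were called against 0.0122% in Ex4, and gave 1.09 ± 0.40 in Ex4 (adjusted p = 0.13). The LQ call held in the 3 fits that each left out an Ex4 array and in none of the other 6, with adjusted p up to 0.13. With all arrays it also held with quantile normalization, at 2.0 (adjusted p = 0.036), and with median centring, at 2.17 (adjusted p = 0.005). Of all genes, 3.43% and 30.2% were called in LQ under these scalings. Without Ex4 replicate 1 the Ex4 value was 1.50 (adjusted p = 0.022). The remaining tested probe set gave 120.6, 300.6 and 149.9 in WT, 85.9, 756.5 and 556.2 in Ex4 and 508.8, 291.1 and 480.9 in LQ. Again Ex4 replicate 1 was low, and the value of 0.88 ± 0.70 in Ex4 became 1.79 without it (adjusted p = 0.038), while LQ gave 1.16 (adjusted p = 0.29). No single direction can be given for SYMPK, and the mean over its probe sets was 0.42 in Ex4 and 0.70 in LQ, opposite in sign to the brightest.

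**Figure D4:**
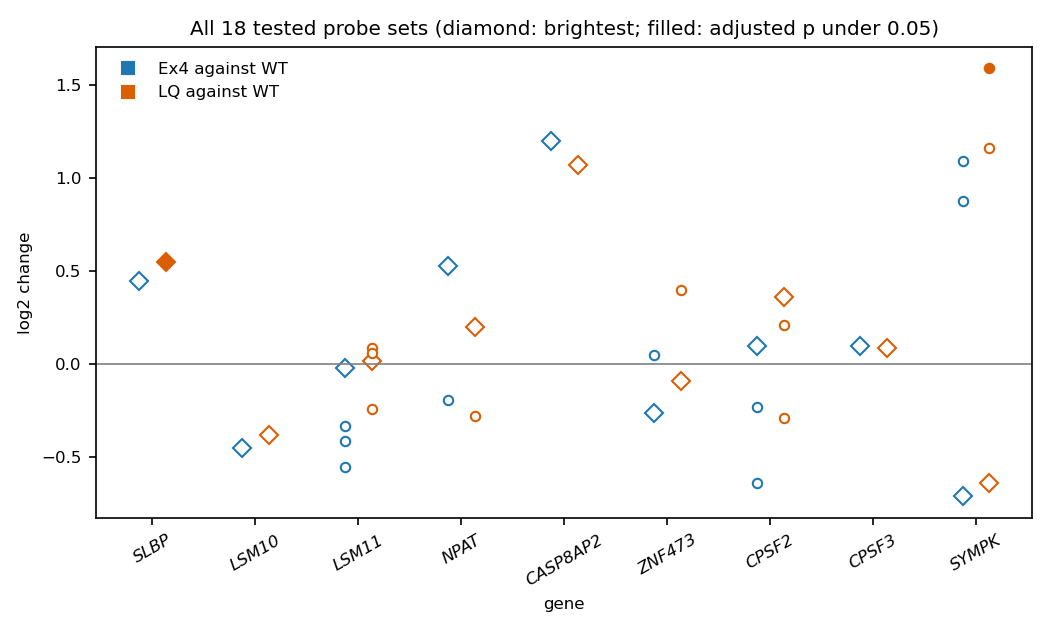
Log2 change against WT (vertical axis) of all 18 tested probe sets by gene, for Ex4 (blue) and LQ (orange), with diamonds for the brightest of each gene. For SYMPK the diamonds lie at -0.71 and -0.64 and the circles at 0.88 to 1.59, and the NPAT circles (-0.19 and -0.28) lie on the other side of 0 from the diamonds.

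Considering whole groups, 2 of 9 members had mutant and WT arrays that did not overlap in Ex4, SLBP higher and SYMPK lower, against 24.0% of all genes (9.07% higher and 14.9% lower). The same pair did so in LQ, against 38.9% of genes (15.7% higher and 23.2% lower). Leaving out WT replicate 1 made it 6 of 9 in each mutant, with SLBP, NPAT, CASP8AP2 and CPSF2 higher and LSM10 and SYMPK lower. The share of all genes was then also larger, at 48.1% in Ex4 (19.7% higher and 28.5% lower) and 60.4% in LQ (25.0% higher and 35.3% lower). Leaving out Ex4 replicate 1 instead made it 3 of 9 in Ex4, SLBP higher and ZNF473 and SYMPK lower, and 2 of 9 in LQ. No share of all genes is given for those arrays. Ex4 and LQ share the WT arrays, so their values are not independent of each other.

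The direct comparison of the mutants gave no call among the 9 members. LQ minus Ex4 ran from -0.33 for NPAT to 0.26 for CPSF2. For SLBP it was 0.10, with an interval of -0.22 to 0.42, and for CASP8AP2 -0.13, with an interval of -1.0 to 0.74. The smallest unadjusted p was 0.28 among the 9 and 0.19 among the 18 probe sets, so 0 were under 0.05, against 588 of 14018 genes (4.19%) and 1345 of 32768 probe sets (4.1%), and 0.0% of genes were called by limma. The arrays of Ex4 and LQ overlapped for all 9 members, against 12.4% of genes whose arrays did not. Of the 18 probe sets 2 did not overlap, a dimmer one each of LSM11 and SYMPK, both higher in LQ. Without Ex4 replicate 1, 2 of the 9 members did not overlap, ZNF473 higher and SYMPK lower in LQ, and 7 of the 18 probe sets. There 2 of the 18 had an unadjusted p under 0.05, and no member was called. No share of all genes is given for these further counts. Among the 9 intervals the highest bound was 0.82, for CPSF2, and the lowest -1.0, for CASP8AP2.

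The genes whose mean-centred log2 values lay nearest to those of SLBP over the 9 arrays were DENR, KDM4C, DNMT1, SVBP and DONSON. Their root mean square differences from SLBP were 0.0632, 0.0719, 0.0742, 0.0792 and 0.08, where the median over 14017 genes was 0.431. DENR, the nearest, gave 15777.6, 12731.5 and 15806.6 in WT, 18917.3, 21867.8 and 19430.4 in Ex4 and 20531.3, 22179.4 and 21970 in LQ. As with SLBP, WT replicate 2 was its lowest array and Ex4 replicate 1 its lowest mutant array. DNMT1, the maintenance DNA methyltransferase, gave 14733.6, 12572.6 and 13266.5, then 16008, 20927.6 and 17930.4, then 20565.6, 19696.8 and 22167.2 in the same order. No other member was near SLBP by this measure, the closest being CPSF3 at rank 2193 (0.256) and the farthest CASP8AP2 at rank 9838 (0.603).

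The replication-dependent histone genes, whose transcripts this machinery cuts, were read as a list because their near-identical copies share probes. Of 63 listed, 38 had a probe set of their own and 29 were tested. In LQ 9 of the 29 fell, 1 rose and 19 did not pass, with a list median of -0.90, where 3.63% of all genes fell, 3.69% rose and the median was -0.09. In Ex4 none passed, with a list median of -0.65 beside -0.08 for all genes. Fitted values were above 0 for 8 of 29 in LQ and 7 of 29 in Ex4, and for 43.6% of all genes. On the log2 scale the list's median signal per array ran 10.06, 11.15 and 11 for WT, 10.65, 9.23 and 9.73 for Ex4 and 10.06, 9.97 and 9.86 for LQ. By this median WT replicate 1 equalled the highest LQ array, and Ex4 replicate 1 lay among WT. Summed over the 38 genes, WT signals were 115460, 272100 and 254610, Ex4 signals 176320, 63664 and 75863, and LQ signals 70177 to 71500. By this sum WT replicate 1 was the lowest WT array but above every LQ array. The counts without Ex4 replicate 1 were 13 lower and 1 higher in Ex4 (median -1.01) and 13 lower and 2 higher in LQ, where 8.1% and 7.62% of all genes were called lower. Those without WT replicate 1 were 9 lower and 1 higher in Ex4 (median -1.07) and 14 lower and 1 higher in LQ (median -1.26), where 5.2% and 7.8% of all genes were called lower. Median centring gave 3 lower and 3 higher in Ex4 (median -0.16) and 10 lower and 4 higher in LQ (median -0.32), beside 0.842% and 1.21% of all genes lower. Quantile normalization gave no call in Ex4 (median -0.65), where 0.0% of genes were called by limma, and 5 lower and 1 higher in LQ (median -0.40), where 3.43% were called in either direction. Histone signals were among the earlier results known when these lists were chosen. Whether they came from stem-loop or polyadenylated transcripts was not tested.

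With all arrays as scaled, other parts of the pathway had few calls, all of them in LQ and all higher, where 3.69% of all genes were called higher and the median gene stood at -0.09. With all arrays the lists, of 96 tested genes in all, had 9 calls in LQ and none in Ex4, where 0.0% of all genes were called by limma and 27.2% had an unadjusted p under 0.05. Leaving out Ex4 replicate 1 gave them 9 calls in Ex4, all higher, and 12 higher and 1 lower in LQ. Of all genes, 5.69% in Ex4 and 6.42% in LQ were then called higher, and 8.1% and 7.62% lower. Leaving out WT replicate 1 gave 13 higher and 1 lower in Ex4 and 15 higher and 2 lower in LQ. There 8.59% and 9.97% of all genes were called higher, and 5.2% and 7.8% lower. In each of these fits 6 of the Ex4 calls were among the 9 genes called in LQ with all arrays. With median centring 28 rose in Ex4 and 49 in LQ and none fell, where 18.5% and 28.9% of all genes were called higher. With quantile normalization none was called in Ex4 and 3 in LQ, all higher, where 0.0% and 3.43% of all genes were called in either direction. The counts of each list for these fits are given with its genes and are to be read against these shares of all genes. In the ordinary Sm core, whose members SNRPB, SNRPD3, SNRPE, SNRPF and SNRPG also sit in the U7 ring, 1 of 7 genes rose. This was SNRPD1, a core protein that LSM10 replaces in U7, at 0.71 ± 0.18 (adjusted p = 0.043) after signals of 10880.1 to 13942.2 in WT, 15648.4 to 22484.3 in Ex4 and 16831.1 to 23033.2 in LQ. All its mutant arrays were above WT, and Ex4 gave 0.60 (adjusted p = 0.095). SNRPD1 rose in Ex4 by 0.74 without Ex4 replicate 1 (adjusted p = 0.026) and by 0.68 without WT replicate 1 (adjusted p = 0.043). Its other probe set gave 0.51 in LQ and 0.46 in Ex4. SNRPF gave 0.50 in LQ (adjusted p = 0.077) and 0.18 in Ex4. The list median was 0.47 in LQ and 0.18 in Ex4. Calls in LQ were 2 higher without Ex4 replicate 1, 2 higher and 1 lower without WT replicate 1, and 6 of 7 higher with median centring. In Ex4 they were 1, 1 and 2, all higher, in the same order.

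Among 17 tested genes of the polyadenylation machinery, 1 rose in LQ and 16 did not pass, with list medians of 0.06 in LQ and 0.10 in Ex4. NUDT21, the small subunit of cleavage factor I, had signals of 8958.3 to 10531 in WT, 12610.2 to 17523.1 in Ex4 and 14461.5 to 15980.2 in LQ. It rose in LQ by 0.68 ± 0.16 (adjusted p = 0.033), and Ex4 gave 0.65 (adjusted p = 0.077). NUDT21 rose in Ex4 by 0.77 without Ex4 replicate 1 (adjusted p = 0.012) and by 0.72 without WT replicate 1 (adjusted p = 0.018). Its other probe sets gave 0.57 and 0.77 in LQ and 0.16 and 0.49 in Ex4. PCF11, a termination factor of cleavage factor II, gave -1.25 ± 0.38 in LQ (adjusted p = 0.063) and -0.39 in Ex4 (adjusted p = 0.55). Its LQ arrays were all below WT, at 1185.3 to 3086.3 against 3884 to 6098.7. PCF11 passed in LQ without Ex4 replicate 1, at -1.25 (adjusted p = 0.034). Its other probe set did not share the fall, at 0.07 in LQ and 0.28 in Ex4. Calls of the list in LQ were 1 higher and 1 lower without Ex4 replicate 1, 1 higher without WT replicate 1 and 7 of 17 higher with median centring. In Ex4 they were 1, 2 and 5, all higher.

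Integrator, the complex that cuts small nuclear RNAs with relatives of CPSF2 and CPSF3, had 1 of 14 genes called. INTS13 rose in LQ by 0.80 ± 0.18 (adjusted p = 0.031), from 7900.8 to 12854.3 in WT to 16640.9 to 18310.9 in LQ, with 0.61 in Ex4 (adjusted p = 0.091). INTS2 gave 0.63 in LQ (adjusted p = 0.096) and 0.83 in Ex4 (adjusted p = 0.085). INTS2 rose in Ex4 by 0.98 without Ex4 replicate 1 (adjusted p = 0.022). Without WT replicate 1 it rose in Ex4 by 1.03 (adjusted p = 0.014) and in LQ by 0.82 (adjusted p = 0.027), and INTS13 rose in Ex4 by 0.78 (adjusted p = 0.012). The list medians were 0.08 in LQ and 0.11 in Ex4. Of the 14 Integrator genes 1 rose in each mutant without Ex4 replicate 1 and 2 in each without WT replicate 1, and with median centring 7 rose in LQ and 3 in Ex4. None of 8 cap binding and elongation genes passed, with medians of 0.24 and 0.07. NCBP2, the cap-contacting subunit of the nuclear cap-binding complex, gave 0.54 in LQ (adjusted p = 0.075) and 0.64 in Ex4 (adjusted p = 0.087), and CCNT1, the cyclin of P-TEFb, 0.35 in both. Other probe sets gave -0.05 in LQ and -0.25 in Ex4 for NCBP2, and -0.56 and -0.29 for CCNT1. NCBP2 rose in Ex4 by 0.69 without Ex4 replicate 1 (adjusted p = 0.040). Without WT replicate 1 it rose in Ex4 by 0.78 (adjusted p = 0.016) and in LQ by 0.68 (adjusted p = 0.023). It was the only cap binding or elongation gene called in these 2 fits, and with median centring 5 of 8 rose in LQ and 2 in Ex4.

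Histone mRNA is degraded after uridylation and decapping once replication stops. Of 17 tested genes of its decay and translation, 2 rose in LQ, with list medians of 0.04 in LQ and 0.03 in Ex4. UPF1, the helicase recruited to SLBP during histone mRNA decay, had signals of 2284.4 to 2613.9 in WT, 3144.5 to 4142.7 in Ex4 and 4166.9 to 4749.1 in LQ, and rose by 0.83 ± 0.18 (adjusted p = 0.029). Ex4 gave 0.49 (adjusted p = 0.12), and a second UPF1 probe set gave 0.32 in LQ and -0.28 in Ex4. DCP2, the decapping enzyme, rose by 0.86 ± 0.22 in LQ (adjusted p = 0.042) and gave 0.74 in Ex4 (adjusted p = 0.093). DCP2 rose in Ex4 by 0.90 without Ex4 replicate 1 (adjusted p = 0.027) and by 0.96 without WT replicate 1 (adjusted p = 0.013). Its other probe sets gave 0.82, 0.66 and 0.01 in LQ and 0.4, -0.12 and 0.58 in Ex4. Calls of the list in LQ were 2 higher without Ex4 replicate 1, 5 higher and 1 lower without WT replicate 1 and 7 of 17 higher with median centring, and in Ex4 1, 4 and 6, all higher. None of 7 histone gene transcription genes passed with all arrays or with either array left out, with medians of 0.26 and 0.10, and with median centring 4 rose in LQ and 2 in Ex4. YY1 gave 0.26 in LQ and 0.37 in Ex4, and CCNE2, an E-type cyclin, 0.36 and 0.49. The other CCNE2 probe set gave -0.03 in LQ and 0.14 in Ex4. Other YY1 probe sets gave 0.38, 0.36, -0.94, 0.05 and 0.25 in LQ. In Ex4 they gave 0.2, -0.18, -0.46, 0.03 and 0.07.

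SLBP protein is removed through cyclin A-CDK1 phosphorylation and ubiquitin ligases, and 1 of 7 tested genes of that list rose in LQ, with medians of 0.11 in LQ and -0.10 in Ex4. CDK1, the mitotic kinase, gave 13054.5, 4247.1 and 4563.3 in WT, 13338.1, 19021.5 and 18614.5 in Ex4 and 19843.7, 17654.7 and 14100 in LQ. WT replicate 1 was high here too, just below the lowest mutant array. CDK1 rose in LQ by 1.43 ± 0.35 (adjusted p = 0.038), with 1.40 in Ex4 (adjusted p = 0.080). Without WT replicate 1 it rose in LQ by 1.95 (adjusted p = 0.00073) and in Ex4 by 1.93 (adjusted p = 0.00077), and without Ex4 replicate 1 in Ex4 by 1.57 (adjusted p = 0.025). CUL4A, a ubiquitin ligase scaffold, was the other gene of the list called when either array was left out, in Ex4, at 1.05 without Ex4 replicate 1 (adjusted p = 0.011) and 0.94 without WT replicate 1 (adjusted p = 0.037). With median centring 2 of the list rose in each mutant. The 3 other CDK1 probe sets gave 0.55, 0.12 and -0.95 in LQ and 0.63, 0.3 and -0.43 in Ex4. DCAF11, a ligase adaptor, gave -0.46 in LQ and -0.51 in Ex4, and median centring turned the first to 0.12. The other DCAF11 probe set gave 0.64 in LQ and 0.5 in Ex4.

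Of 19 tested S phase genes, 3 rose in LQ and none passed in Ex4, with list medians of 0.33 and 0.21. MCM3, a subunit of the replicative helicase, had signals of 13149 to 15164.1 in WT, 17488.3 to 20963.5 in Ex4 and 24604.5 to 25037.2 in LQ. It rose in LQ by 0.82 ± 0.13 (adjusted p = 0.019), and Ex4 gave 0.44 (adjusted p = 0.098). CDC6, which loads that helicase, had 4461.8 to 5372.4 in WT, 5648.3 to 7679.1 in Ex4 and 9105.1 to 10357.9 in LQ. The rise in LQ was 0.97 ± 0.17 (adjusted p = 0.020), and Ex4 gave 0.45 (adjusted p = 0.14). Another CDC6 probe set gave 0.6 in LQ and 0.07 in Ex4. The third call was MCM4, another helicase subunit, outside the naming rule and named after its values were seen, at 0.63 ± 0.16 in LQ (adjusted p = 0.043) and 0.49 in Ex4 (adjusted p = 0.11). In Ex4 MCM3 rose by 0.50 with either array left out (adjusted p = 0.043 without Ex4 replicate 1 and 0.035 without WT replicate 1), and CDC6 by 0.59 without Ex4 replicate 1 (adjusted p = 0.037). Calls of the list in LQ were 5 higher without Ex4 replicate 1, 3 without WT replicate 1 and 11 of 19 with median centring. In Ex4 they were 2 higher, then 1 higher and 1 lower, then 6 higher. MCM3 and CDC6 kept the call with quantile normalization, where 3.43% of genes were called, at adjusted p of 0.026 and 0.029. SNRPD1, NUDT21, INTS13, DCP2, CDK1 and MCM4 lost theirs there, at 0.063 to 0.094, and UPF1 kept it, at 0.037.

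The 9 LQ calls of these lists depended on which arrays were fitted. UPF1, MCM3, CDC6, NUDT21, INTS13 and CDK1 passed in 4 of the 9 fits that each left out 1 array, those without WT replicate 1 or any 1 Ex4 array. SNRPD1, DCP2 and MCM4 passed in 3 of them. Dropping WT replicate 2 or 3 or any LQ array lost every one of the 9, with adjusted p up to 0.15, while all kept a positive change. Other genes, outside the naming rule and given because the counts above include them, passed with an array left out but not with all 9. Those in LQ without Ex4 replicate 1 were SNRPE, MCM2 and MCM5, all higher. Leaving out WT replicate 1 called RBBP6 in Ex4 and SNRPE in LQ higher, TUT7, LSM5 and XRN1 higher in both mutants, RRM2 lower in Ex4, and SNRPD2 and MIF4GD lower in LQ. XRN1, the cytoplasmic 5′ to 3′ exonuclease, gave 1.76 in Ex4 (adjusted p = 0.0017) and 1.5 in LQ (adjusted p = 0.0029) in that fit. Quantile normalization also set the LQ medians of 4 lists below 0, at -0.02 for polyadenylation, -0.02 for Integrator, -0.08 for decay and -0.06 for SLBP turnover. The Sm core and S phase medians stayed above 0, at 0.36 and 0.20.

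**Figure D5:**
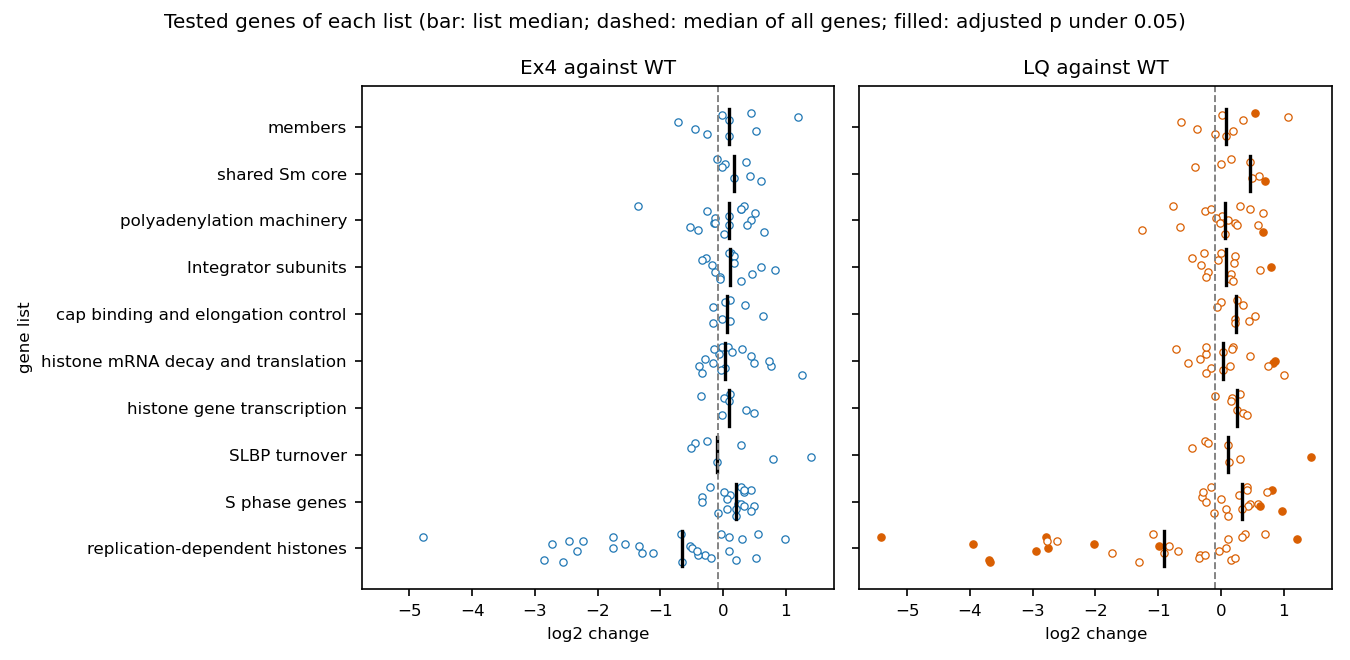
Log2 change against WT (horizontal axes) of every tested gene in the members' list and 9 lists of related genes, for Ex4 (left) and LQ (right), with bars for list medians and a dashed line for the median of all genes. The histone list reaches furthest to the left and holds the 9 filled points that lie below 0, while every other filled point is above 0.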

How the data were processed

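RNA of 9 HEK293 samples was hybridised to Affymetrix arrays. The deposited values are linear intensities, 1 per probe set and array, made by the authors with MAS5 (version not given in the sources used), per the submitters' processing notes. Of 54675 probe sets, 62 controls were left out, 41091 had 1 gene symbol in the platform annotation, 1801 several and 11721 none. Only those with 1 were named, with symbols updated through RefSeq (54 kept the annotation's). The number of arrays limits the precision.

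Values were used as log2(value + 16). Probe sets under percentile 40 of mean log2 value were left out, leaving 32768. All 9 arrays entered 1 model in limma 3.58.1 under R 4.3.3, moderated by empirical Bayes with a trend of variance on signal. Two-sided p-values were adjusted by Benjamini-Hochberg over all 32768, with a threshold of 0.05. On simulated data of 32768 probe sets, 100 changed 2-fold and 100 changed 4-fold, it recovered 20% and 69% for LQ against WT, with 4 false calls. For Ex4 it recovered 16% and 73%, with 3 false calls.

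The members and lists were chosen with earlier results of these data known. All members were named, with the 2 genes of each related list having the smallest adjusted p in LQ, and the 5 genes nearest to SLBP. Alternatives were pseudocounts of 1 and 64, quantile normalization, median centring, no filter, percentile 60, no trend, array weights, a replicate block, fits of only the arrays compared, leaving out each array, and averaging the probe sets of a gene.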

Additional observations from a re-analysis of the deposited data

How the results depend on the processing

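The number of members called was 1 for LQ against WT. It was 0 with quantile normalization, no filter, no variance trend or the replicate block, 2 with only the arrays compared, and 3 with median centring or array weights. Leaving out each array gave 0 to 2. For Ex4 against WT the number of members was 0, with 3 under median centring, 2 under array weights, and 0 to 2 without each array. There 19.3% of all genes were called with median centring, and 13.8% without Ex4 replicate 1 or without WT replicate 1. No share of all genes was computed with no filter, no variance trend, the replicate block, array weights or only the arrays compared. Nor was a share computed with any other array left out. LQ against Ex4 gave 0 members throughout. Same-numbered arrays did not deviate together, with correlations of -0.0827 to 0.191, so they share only a number. With that replicate block SLBP in LQ was 0.55 (adjusted p = 0.054).

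Signs turned as follows, each below the threshold, and the cause was not tested. Median centring gave 0.04 and 0.20 for LSM10, 0.23 and 0.50 for ZNF473 (Ex4 and LQ), 0.47 for LSM11 and 0.10 for PCF11 in Ex4, and 0.12 for DCAF11 in LQ. Quantile normalization gave -0.05 and -0.09 for CPSF3 and, in LQ, -0.08 for LSM11. Array weights gave -0.12 for LSM11 and -0.04 for CPSF3 in LQ. The mean of probe sets gave 0.42 and 0.70 for SYMPK, -0.26 for CPSF2 in Ex4 and, in LQ, -0.02 for LSM11, -0.04 for NPAT, 0.16 for ZNF473, -0.11 for CCNT1 and 0.09 for DCAF11. Without each array in turn, LSM11 ran from -0.22 to 0.16 in Ex4 and -0.18 to 0.19 in LQ, CPSF2 from -0.08 to 0.40 in Ex4, and in LQ NPAT from -0.07 to 0.56, ZNF473 from -0.21 to 0.03 and CPSF3 from -0.04 to 0.22. For LQ against Ex4, CPSF3 turned to 0.08 with median centring and SYMPK to -0.04 with array weights, and without each array LSM10 ran from -0.06 to 0.18, LSM11 from -0.06 to 0.16, CPSF3 from -0.14 to 0.08 and SYMPK from -0.15 to 0.20.

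Dimmer probe sets, numbered by brightness, also turned. Median centring gave 0.34 for LSM11 probe set 2 and 0.29 for CPSF2 probe set 2 in LQ, 0.30 for NPAT probe set 2 in both mutants and, in Ex4, 0.16 and 0.08 for LSM11 probe sets 3 and 4 and 0.25 for CPSF2 probe set 3. Quantile normalization gave 0.01 and 0.08 for LSM11 probe sets 3 and 4 in Ex4. Array weights gave -0.08 for LSM11 probe set 3 in LQ and, in Ex4, -0.22 for ZNF473 probe set 2 and 0.14 for CPSF2 probe set 3. Without each array, LQ values ran from -0.13 to 0.23 and -0.16 to 0.36 for LSM11 probe sets 3 and 4 and -0.17 to 0.80 for CPSF2 probe set 3. The Ex4 values ran from -0.48 to 0.17 for NPAT probe set 2, -0.32 to 0.24 for ZNF473 probe set 2 and -0.62 to 0.35 for CPSF2 probe set 3. With 3 arrays a group, most 2-fold changes were missed in the simulated data. Fewer probe sets changed there than the 2231 called in LQ, so that rate may not hold for LQ. SLBP was called in LQ at 1.46-fold.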
